A study of Mus musculus with 24 samples.

Results

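Lungs of mice that had breathed in rigid carbon nanotubes (rCNT) were compared with lungs of mice given graphite (Graphite), a fibre against a plate-like form of carbon at equal dose. The comparison used the 3 samples whose titles end in rCNT and the 4 whose titles end in Graphite, 7 of the 24 samples of the series. All were lung RNA from female C57BL/6 mice aged 7 to 8 weeks. Each mouse received 10 µg a day in 50 µl of saline (PBS) by oropharyngeal aspiration, where the mouse inhales liquid dropped into the throat. Doses were given on 4 days and the lungs were collected 24 h later. The 3 Ctrl samples came from mice of the same strain, sex and age given 50 µl of PBS alone by the same route. Each sample pooled 2 RNA preparations of a group, so the pools hide the spread between animals, and p-values measure the spread between pools. The other 14 samples were of 4 further carbon materials. They entered the fit, where they helped set the spread per gene, the dye correction and the correlation of samples on an array. The fitted differences thus depend in part on them. The labels name the materials by these short names alone, with no length, diameter or purity.

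Particles that settle in the alveoli are normally taken up and cleared by macrophages. Long stiff fibres are known to resist uptake by a single cell; graphite consists of stacked sheets. Injured airway cells release alarmins such as IL-33, which drive type 2 immunity: eotaxins that call in eosinophils, mucus-making goblet cells, and macrophages that make arginase in place of nitric oxide. Tissue macrophages also release chemokines for monocytes and neutrophils, and IL-6 switches on acute phase genes.

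The 2-colour arrays held a different sample in each dye, and 2 of the 12 arrays held a sample of each material. One of these arrays carried rCNT 4 with Graphite 16 and the other rCNT 6 with Graphite 14, with rCNT in Cy5 and Graphite in Cy3 on both, so a difference within these arrays also holds the difference between dyes. rCNT 5, in Cy3, lay on slide 3, where no Graphite sample lay, and Graphite 13 and 15, in Cy5, lay on slides 2 and 1. Samples on the same array had residuals that moved together, with a correlation of 0.87 for rCNT 4 and Graphite 16 and 0.545 for rCNT 6 and Graphite 14, over a range of 0.4 to 0.87 for the 12 arrays. The residual SD was 0.495 in rCNT 4, 0.313 in rCNT 5 and 0.251 in rCNT 6, against 0.389, 0.267, 0.257 and 0.43 in Graphite 13, 14, 15 and 16 and 0.16 to 0.27 in the rest of the series. The number of distinct values was 4868 in Graphite 13 and between 7864 and 12122 elsewhere in the series. Lung-defining genes were near the top of the scale in every sample: surfactant protein C (Sftpc) read 16.82 to 17.97 in rCNT and 17.18 to 17.97 in Graphite samples (17.97 is the highest value of the scale and was reached in rCNT 4, Graphite 13, Graphite 15 and Ctrl 1), and the club cell secretoglobin Scgb1a1 read 17.28 to 17.38 and 17.43 to 17.56. All values are log2 signals, on which 1 unit is a factor of 2, and the 40th percentile of a sample, taken here as the limit of a dim signal, lay between 5.69 and 5.75. Signals of different genes are not compared, since each probe has its own brightness.

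At an adjusted p under 0.05 (limma, Benjamini-Hochberg over all genes tested), 4311 of 16530 genes differed between rCNT and Graphite lungs, which is 26.1%. Of these, 2112 were higher (12.8%) and 2199 lower (13.3%) after rCNT. The higher genes moved further. At least 1.5-fold was reached by 1748 genes (10.6%). A difference of at least 2-fold was reached by 385 of the higher and 74 of the lower genes, of at least 4-fold by 54 and 2, and of at least 16-fold by 7 and 0. For 1697 genes (10.3%) every rCNT sample lay above every Graphite sample, and for 1722 (10.4%) every rCNT sample lay below. The median difference of all genes was -0.01. Of 634 members of the 50 gene lists used below 588 could be tested. Every count of list members below is to be read beside the shares of all genes. These were 12.8% higher, 13.3% lower and, for groups without overlap, 10.3% above and 10.4% below. A count near these shares is no result about the list. The filter on dim signals was passed by 157 genes with under 3 samples outside the rCNT group above the limit. It was passed by 145 genes with under 3 samples outside the Graphite group above it. Such genes were tested only because 1 of the compared groups was above the limit, so their calls are no separate support. Of the 2112 higher genes, 154 had under 3 of 4 Graphite samples above it. The count of genes called was 916 when only these 7 samples were fitted, which leaves fewer samples to estimate the spread, and 911 of these were among the 4311. The fit over 24 samples took 1 spread per gene for all groups. The residual SD was 0.313 to 0.495 in rCNT 4, rCNT 5, Graphite 13 and Graphite 16, above the 0.16 to 0.27 of the other groups. The standard errors and adjusted p of this comparison may therefore be too small. With array as a fixed term 2793 genes were called, and with rCNT, Graphite and Ctrl samples alone 2548.

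More genes were past the threshold against Ctrl after rCNT than after Graphite. Against Ctrl, 3598 genes (21.8%) were past the threshold after rCNT, 2044 higher (12.4%) and 1554 lower (9.4%). After Graphite 187 were (1.13%), 90 higher (0.544%) and 97 lower (0.587%). Of the 2112 higher genes, 1460 were also higher in rCNT than in Ctrl lungs, and 1050 of the 2199 lower genes were also lower there. Genes past the threshold in neither material against Ctrl numbered 606 among the higher and 1136 among the lower genes. Both comparisons with Ctrl share the Ctrl samples and each shares samples with the comparison of the materials, so their values are given side by side below and are not independent support.

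Short stretches of sequence upstream of some of the genes described below are shown first, because these genes belong to groups with a known class of control element. They were chosen after their sequences were read, from 300 bases around the start of each gene (250 before it and 50 after), RefSeq on GRCm38.p6, printed 5′ to 3′ on the gene's strand. Capitals mark the motif searched, on either strand. For the acute phase gene Saa3 (chr7:46715627-46715926, minus strand) it is the C/EBP core TTGCNNAA. For the interferon-induced genes Isg15 (chr4:156200769-156201068, minus strand) and Cxcl10 (chr5:92348840-92349139, minus strand) it is the core of the interferon-response element, GAAA followed after 2 free bases by another GAAA, with 3 overlapping matches in Isg15. For the clock genes Per3 (chr4:151044616-151044915, minus strand) and Ciart (chr3:95882179-95882478, minus strand) it is the D-box TTATGTAA and the E-box CACGTG.
Saa3: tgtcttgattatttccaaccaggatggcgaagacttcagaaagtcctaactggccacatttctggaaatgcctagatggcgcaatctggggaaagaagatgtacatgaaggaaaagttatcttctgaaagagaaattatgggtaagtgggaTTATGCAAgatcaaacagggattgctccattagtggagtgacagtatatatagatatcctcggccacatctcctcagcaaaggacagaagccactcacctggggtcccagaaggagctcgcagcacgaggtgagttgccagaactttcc
Isg15: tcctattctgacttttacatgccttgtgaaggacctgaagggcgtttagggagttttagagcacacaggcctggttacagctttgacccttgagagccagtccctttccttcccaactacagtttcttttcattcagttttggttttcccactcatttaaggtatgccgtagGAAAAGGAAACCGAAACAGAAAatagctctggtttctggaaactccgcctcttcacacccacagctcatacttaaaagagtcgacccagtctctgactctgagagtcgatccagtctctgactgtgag
Cxcl10: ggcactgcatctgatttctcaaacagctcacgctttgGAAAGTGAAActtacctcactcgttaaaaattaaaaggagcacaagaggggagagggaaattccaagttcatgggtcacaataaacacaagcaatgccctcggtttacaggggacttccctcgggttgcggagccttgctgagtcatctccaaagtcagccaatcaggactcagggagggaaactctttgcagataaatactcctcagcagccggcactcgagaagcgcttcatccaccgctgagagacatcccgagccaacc
Per3: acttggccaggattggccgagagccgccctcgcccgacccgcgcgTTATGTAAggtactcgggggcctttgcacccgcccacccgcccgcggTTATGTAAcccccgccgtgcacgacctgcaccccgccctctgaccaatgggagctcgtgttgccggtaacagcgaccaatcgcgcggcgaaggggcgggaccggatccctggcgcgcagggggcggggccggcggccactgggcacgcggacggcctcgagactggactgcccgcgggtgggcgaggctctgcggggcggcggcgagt
Ciart: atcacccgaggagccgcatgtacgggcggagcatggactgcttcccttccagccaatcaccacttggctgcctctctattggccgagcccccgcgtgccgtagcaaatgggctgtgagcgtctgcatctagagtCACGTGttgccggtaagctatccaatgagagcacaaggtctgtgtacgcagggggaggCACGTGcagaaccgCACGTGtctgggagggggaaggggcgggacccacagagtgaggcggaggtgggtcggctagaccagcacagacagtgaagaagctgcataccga
The interferon-response core was present in 9 of 16 interferon-induced genes with a promoter entry (56.2%), against 3.99% of 27025 genes. The C/EBP core was present in 7 of 10 acute phase genes (70.0%), against 12.2% of genes. The E-box was found in 2 of 10 core clock genes and 3 of 7 clock output genes, against 8.09% of genes, and the D-box in 1 of these 10 and 0 of these 7, against 1.11%. A match says only that the letters are in the window.

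Chemokines for monocytes had the highest median of the 50 lists. All 8 measured CC chemokines of the list were higher in rCNT than in Graphite lungs (background 12.8%), with a median of 2.54 log2 units, and in all 8 every rCNT sample lay above every Graphite sample. Ccl7, a ligand of the monocyte receptor CCR2, read 11.13, 11.24 and 12.15 in rCNT lungs, against 6.99, 7.59, 7.66 and 7.3 in Graphite and 6.19, 6.2 and 6.44 in Ctrl lungs. The lowest rCNT sample was far above the highest Graphite sample, and Graphite lay a little above Ctrl. The fitted difference was 4.0 ± 0.27 (SE) between rCNT and Graphite (adjusted p = 4.3e-08). Ccl2, the main monocyte attractant through the same receptor, read 11.99, 12.33 and 12.99 after rCNT, against 8.46, 9.15, 8.85 and 8.75 after Graphite and 6.88, 7.48 and 7.53 in Ctrl. Here the groups formed 3 separate steps: rCNT exceeded Graphite by 3.35 ± 0.31 (adjusted p = 5.6e-07), and Graphite exceeded Ctrl by 1.55 (adjusted p = 0.031). Ccl8 showed the same steps, 3.41 higher in rCNT than Graphite (adjusted p = 3.2e-06) and 1.72 higher in Graphite than Ctrl (adjusted p = 0.043). Against Ctrl, 8 of the 8 were higher after rCNT and 2 after Graphite.

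Of 7 measured neutrophil chemokines and growth factors, 5 were higher and 1 lower in rCNT lungs. Cxcl5, which epithelial cells release to draw in neutrophils, read 10.05, 10.76 and 11.61 after rCNT, against 7.06, 5.93, 5.96 and 5.99 after Graphite and 5.79, 5.52 and 5.8 in Ctrl. All but Graphite 13 were close to the dim limit outside the rCNT group, so the difference of 4.45 ± 0.29 (adjusted p = 4.3e-08) is from a low base. Cxcl1 was 2.5 ± 0.26 higher (adjusted p = 1.6e-06). The exception was Ppbp, a chemokine precursor stored in platelets: it read 9.19, 8.54 and 9.11 after rCNT, against 9.78, 9.35, 10.86 and 9.31 after Graphite, a difference of -0.88 ± 0.23 (adjusted p = 0.0074). Ctrl samples read 8.4, 9.17 and 9.33 for Ppbp and overlapped the rCNT samples, and Graphite 15 was the highest of these 10. Within the shared arrays Ppbp differed by -0.13 and -0.23. Without rCNT 5 the Ppbp difference was -0.74 and its adjusted p was 0.059.

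Eotaxins and other chemokines of type 2 immunity were higher in 8 of 8 cases, with a median of 1.49. Ccl24, also called eotaxin 2, had the largest difference of all named genes. It read 12.03, 13.01 and 13.35 in rCNT lungs, against 6.26, 7.86, 6.14 and 7.2 in Graphite and 6.4, 6.05 and 6.3 in Ctrl lungs. Graphite 14 and 16, which shared an array with rCNT and were in Cy3, read higher than Graphite 13 and 15, in Cy5. Among the 4 Graphite samples array and dye cannot be told apart. Ctrl 1 and 3, in Cy3, read 6.4 and 6.3, and Ctrl 2, in Cy5, read 6.05. The cause of the split in Graphite was not tested. All 4 Graphite samples were more than 4 units below the lowest rCNT sample. The difference was 5.63 ± 0.4 (adjusted p = 5e-08). The eotaxin Ccl11 was 2.89 ± 0.27 higher (adjusted p = 5.6e-07), and Ccl17, a ligand of the T helper 2 cell receptor CCR4, was 3.16 ± 0.24 higher (adjusted p = 9.9e-08). Ccr3, the eotaxin receptor on eosinophils, read 8.28, 9.1 and 9.55 after rCNT, against 7.55, 6.91, 6.89 and 7.09 after Graphite, 1.75 ± 0.25 higher (adjusted p = 3.9e-05).

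**Figure D1:**
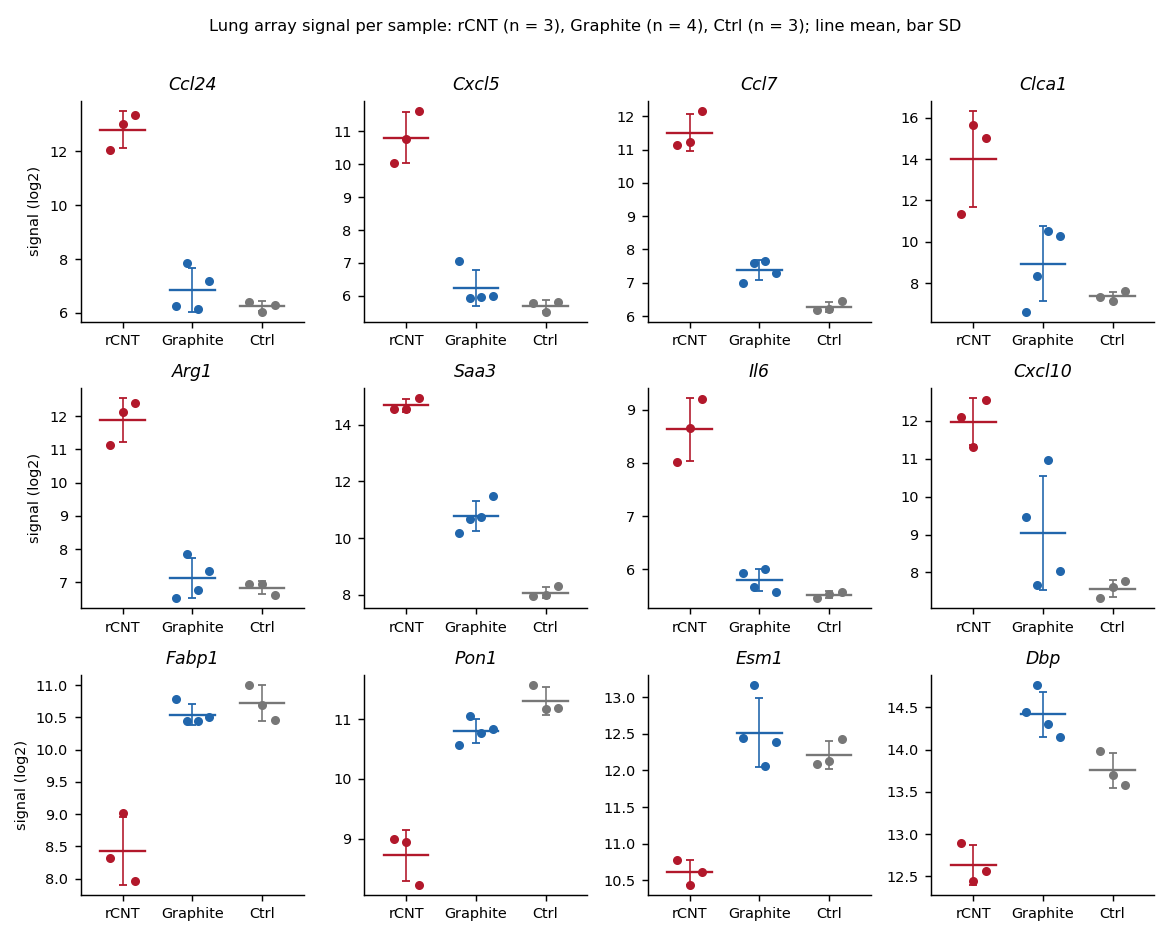
Log2 array signal of 12 genes in each sample of rCNT (3 samples), Graphite (4) and Ctrl (3); points are samples, horizontal lines group means and bars SD, and vertical scales differ between genes and do not start at 0. For Ccl24 the rCNT samples lie at 12.03 to 13.35 and the Graphite samples at 6.14 to 7.86, whereas for Dbp the rCNT samples lie below both other groups.

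The cytokines of type 2 immunity followed in part: 6 of 9 were higher and 1 was lower. With only the rCNT and Graphite samples fitted, 3 were higher and 1 lower. The list's median was 0.24 within slide 1 and 1.32 within slide 2. Its mean level above Ctrl was 0.27 in rCNT 4 and 1.06 and 1.11 in rCNT 5 and 6. In Graphite samples it was -0.01 to 0.13. Il33, the alarmin kept in the nuclei of alveolar type 2 and other barrier cells, read 12.91, 13.69 and 14.03 after rCNT, against 11.94, 11.4, 11.64 and 11.43 after Graphite and 11.31, 11.28 and 11.19 in Ctrl. The groups did not overlap, and the difference was 1.91 ± 0.18 (adjusted p = 5.6e-07). Il13, the cytokine that turns airway cells to mucus production, read 5.76, 7.82 and 7.52 after rCNT, against 5.44, 5.48, 5.34 and 5.28 after Graphite. All Graphite samples were under the dim limit for Il13 and rCNT 4 was at it, so the difference of 1.58 ± 0.24 (adjusted p = 9.3e-05) was carried by rCNT 5 and 6. Il4 had the same shape, with 6.89 in rCNT 4 and 8.67 and 8.61 in rCNT 5 and 6, against 5.94 to 6.63 in the Graphite samples (difference 1.78 ± 0.27, adjusted p = 7.4e-05). Il5, which sustains eosinophils, was 0.9 ± 0.13 higher (adjusted p = 3.4e-05). Tslp, another epithelial alarmin, went the opposite way: 7.41, 7.45 and 7.64 after rCNT, against 8.78, 8.59, 8.05 and 8.25 after Graphite and 7.77, 8.11 and 8.19 in Ctrl. Its difference between the materials was -0.9 ± 0.14 (adjusted p = 7.5e-05), while neither material passed the threshold against Ctrl (-0.39, adjusted p = 0.1 for rCNT and 0.51, adjusted p = 0.082 for Graphite).

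All 11 measured goblet cell and mucus genes were higher in rCNT lungs, with a median of 2.06, and in 9 the groups did not overlap. Clca1, a secreted protein of goblet cells, read 11.34, 15.63 and 15.01 after rCNT, against 6.63, 8.35, 10.54 and 10.27 after Graphite and 7.33, 7.14 and 7.61 in Ctrl. Both materials varied widely among their own samples, so the large difference of 5.42 has an SE of 0.9 (adjusted p = 0.00019). Within the array of rCNT 4 and Graphite 16 it came to 1.06, and within that of rCNT 6 and Graphite 14 to 6.66. Slc26a4, an anion exchanger of the airway surface, was steadier: 12.51, 14.01 and 14.21 after rCNT, against 9.13, 9.2, 8.56 and 9.49 after Graphite and 7.49, 8.08 and 7.99 in Ctrl, a difference of 4.24 ± 0.36 (adjusted p = 2.7e-07). Agr2, needed to fold mucins, was 3.53 ± 0.29 higher (adjusted p = 1.8e-07), and the gel-forming mucin Muc5ac was 2.98 ± 0.34 higher (adjusted p = 4.3e-06). rCNT 4 was the lowest rCNT sample for Clca1, Slc26a4, Agr2 and Muc5ac. Within slide 1, which holds rCNT 4 with Graphite 15 and 16, the list's median was 1.21 and 5 genes were called, and within slide 2, which holds rCNT 6 with Graphite 13 and 14, it was 3.7 with 10 called.

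Genes of alternatively activated macrophages were higher in 9 of 10 cases, with a median of 1.83. The median was 1.2 within slide 1 and 1.98 within slide 2. Arg1, which splits arginine into ornithine and urea, read 11.14, 12.13 and 12.4 after rCNT, against 6.52, 7.85, 6.77 and 7.35 after Graphite and 6.95, 6.95 and 6.6 in Ctrl. Graphite 13 lay below the Ctrl samples and Graphite 15 among them. Graphite 14 and 16, in Cy3 and on arrays with rCNT, lay above every Ctrl sample. rCNT exceeded Graphite by 4.41 ± 0.41 (adjusted p = 5.6e-07). Retnlb, a secreted protein of the resistin-like family made by epithelium and macrophages, was 3.68 ± 0.27 higher (adjusted p = 5e-08), with 9.92, 10.09 and 9.98 after rCNT, against 6.11, 6.34, 5.5 and 6.33 after Graphite. Pdcd1lg2, the checkpoint ligand PD-L2, was 2.06 ± 0.16 higher (adjusted p = 9.9e-08). Also among the 12 genes with the largest differences were Fbp1, a gluconeogenic enzyme (4.24 ± 0.42, adjusted p = 1e-06), and Fxyd4, a regulator of the sodium pump (3.46 ± 0.26, adjusted p = 7.9e-08). Btbd17 had one of the 6 smallest p-values, with 7.34, 7.29 and 7.36 after rCNT, against 5.25, 5.87, 5.71 and 5.68 after Graphite (1.64 ± 0.12, adjusted p = 5e-08). Only 1 of its 4 Graphite samples was above the dim limit, so the size of its difference is not well measured.

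Acute phase genes were higher in 11 of 13 cases and lower in none, with a median of 1.61. Saa3, the serum amyloid A form made in lung and macrophages, read 14.56, 14.55 and 14.95 after rCNT, against 10.18, 10.69, 10.73 and 11.48 after Graphite and 7.94, 7.99 and 8.3 in Ctrl. It was thus 3.4 ± 0.49 higher in rCNT than Graphite (adjusted p = 5.2e-05), and 2.5 higher in Graphite than Ctrl (adjusted p = 0.027). Saa3 was the only acute phase gene past the threshold in Graphite against Ctrl, against 12 of the 13 in rCNT against Ctrl. Saa1 had the same difference between materials, 3.4 ± 0.33 (adjusted p = 7.5e-07), and Saa2 was 2.02 ± 0.18 higher (adjusted p = 5.5e-07). Lcn2, the iron-binding lipocalin, read 16.13, 16.37 and 15.94 after rCNT, against 13.7, 14.2, 14.13 and 15.08 after Graphite, 1.58 ± 0.25 higher (adjusted p = 0.00011). Graphite 16 was the highest Graphite sample for both Saa3 and Lcn2.

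Il6, the inducer of acute phase genes, read 8.02, 8.66 and 9.2 after rCNT, against 5.94, 5.67, 6.0 and 5.57 after Graphite and 5.46, 5.54 and 5.58 in Ctrl. Graphite and Ctrl samples were at the dim limit, and the difference of 2.79 ± 0.19 (adjusted p = 4.3e-08) had one of the smallest p-values of the comparison. Of the 10 genes of the IL-6 family list, 5 were higher and 1 lower, with a median of 0.36. Its feedback inhibitor Socs3 was 1.11 ± 0.18 higher (adjusted p = 0.00016). Among NF-kB feedback and TNF genes 4 of 11 were higher and 1 lower, with Bcl3, a nuclear cofactor of NF-kB, 1.25 ± 0.19 higher (adjusted p = 0.0001) and the subunit Relb 0.8 ± 0.13 higher (adjusted p = 0.00012). In the inflammasome and IL-1 family list 5 of 13 were higher and 1 lower, and 3 were higher without rCNT 6. Il1r2, the decoy receptor for IL-1, was 1.42 ± 0.25 higher (adjusted p = 0.00036). The lower gene was Il18, a cytokine released by inflammasomes: 9.17, 8.82 and 8.61 after rCNT, against 10.6, 10.16, 10.17 and 9.95 after Graphite and 9.73, 9.76 and 9.79 in Ctrl. The 3 groups did not overlap for Il18, with rCNT minus Graphite at -1.29 ± 0.14 (adjusted p = 3.8e-06) and rCNT minus Ctrl at -0.82 (adjusted p = 0.0024).

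Interferon-induced genes were higher in 14 of 21 cases and lower in none, with a median of 0.85. Cxcl10, the T cell attractant whose promoter is shown above, read 12.1, 11.31 and 12.54 after rCNT, against 9.45, 7.68, 10.97 and 8.03 after Graphite and 7.32, 7.62 and 7.77 in Ctrl. Graphite samples spread over more than 3 units, with Graphite 15 near the rCNT range, and the difference was 3.08 ± 0.45 (adjusted p = 5.7e-05). Isg15, a ubiquitin-like protein, read 13.48, 13.03 and 13.11 after rCNT, against 11.24, 10.71, 11.68 and 11.39 after Graphite and 11.19, 11.24 and 11.32 in Ctrl, so that Graphite stood around Ctrl and rCNT 2.04 ± 0.25 above Graphite (adjusted p = 1.1e-05). The antiviral enzyme Rsad2 was 1.57 ± 0.18 higher (adjusted p = 4.7e-06). The mean level of the whole list above the Ctrl mean was 1.03, 1.32 and 1.62 in the rCNT samples, against 0.27, 0.05, 0.95 and -0.08 in Graphite 13, 14, 15 and 16. Without Graphite 15 the list had 17 higher genes and a median of 1.03, and without rCNT 6 it had 11 and a median of 0.67. With only the rCNT and Graphite samples fitted 8 were higher, with a median of 0.77. The median was 0.64 within slide 1 and 1.27 within slide 2.

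**Figure D2:**
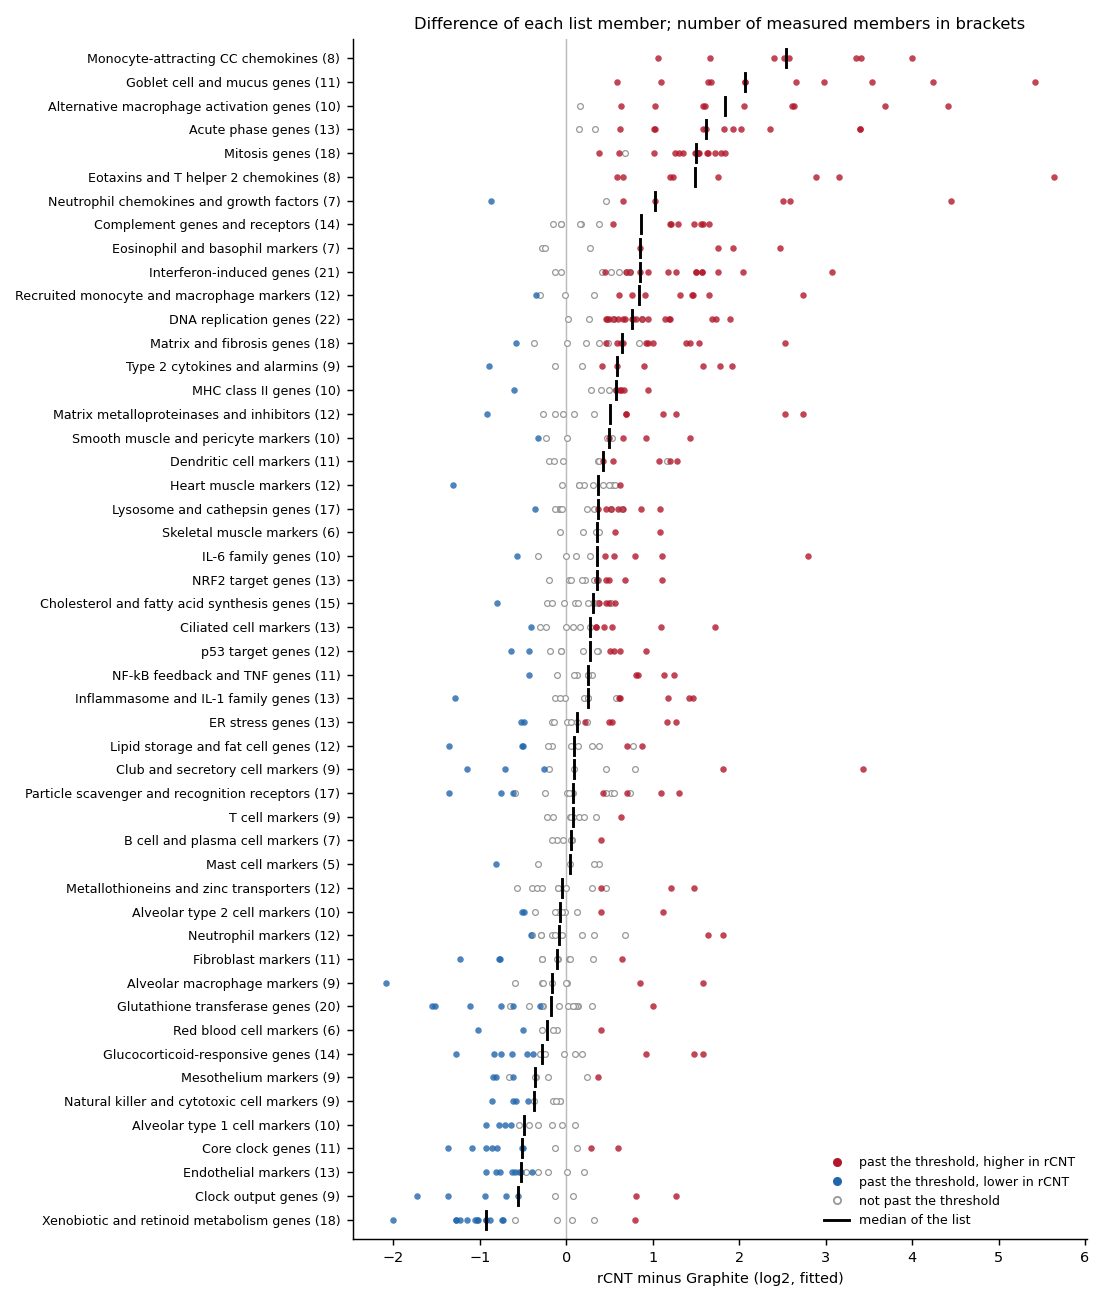
Fitted log2 difference, rCNT minus Graphite, of every measured member of the 50 gene lists, sorted by the list's median (black bar); filled points are past the adjusted p threshold of 0.05 (red higher, blue lower in rCNT) and open points are not. Monocyte chemokines lie at the top with a median of 2.54 and xenobiotic metabolism genes at the bottom with -0.93, while lists such as B cell and plasma cell markers lie near 0 (0.05).

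Genes of cell division were higher almost throughout. In the mitosis list 17 of 18 were higher and none lower, with a median of 1.5, and in the DNA replication list 18 of 22, with a median of 0.76. Ube2c, the enzyme that tags cyclins for destruction, read 10.9, 10.5 and 10.8 after rCNT, against 9.32, 8.65, 8.47 and 8.82 after Graphite and 7.8, 7.91 and 8.15 in Ctrl. The groups stood as 3 steps without overlap, and rCNT exceeded Graphite by 1.83 ± 0.26 (adjusted p = 3.6e-05). Cdc20, the activator of the same complex, was 1.79 ± 0.25 higher (adjusted p = 3.1e-05). Among replication genes, cyclin E1 (Ccne1) was 1.14 ± 0.16 higher (adjusted p = 3.3e-05), and the replicative helicase subunit Mcm5 was 1.19 ± 0.18 higher (adjusted p = 6.7e-05). The mean level of the mitosis list above Ctrl was 1.87, 2.06 and 2.19 in rCNT samples, against 0.96, 0.59, 0.39 and 0.44 in Graphite samples. None of the 18 mitosis genes and 3 of the 22 replication genes passed the threshold in Graphite against Ctrl. Targets of p53 were split, with 4 of 12 higher and 2 lower, and with 2 higher without rCNT 4, Graphite 14, Graphite 15 or Graphite 16: Phlda3, an inhibitor of Akt, was 0.62 ± 0.12 higher (adjusted p = 0.00081), and the stress-induced Trp53inp1 differed by -0.64 ± 0.13 (adjusted p = 0.00091).

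Genes of the circadian clock were more often lower than higher. Of 11 core clock genes 7 were lower (background 13.3%) and 2 higher, with a median of -0.51, and of 9 clock output genes 5 were lower and 2 higher, with a median of -0.56. The core clock count was 4 lower and 0 higher without rCNT 5, and 5 lower and 0 higher without rCNT 6. It was 4 lower within slide 1 and 3 within slide 2. Dbp, a clock output factor that binds the D-box, read 12.9, 12.45 and 12.56 after rCNT, against 14.45, 14.77, 14.3 and 14.15 after Graphite and 13.98, 13.7 and 13.58 in Ctrl. rCNT samples were the lowest and Graphite samples the highest, with Ctrl between them. The difference between the materials was -1.72 ± 0.18 (adjusted p = 1.7e-06), against -1.11 for rCNT minus Ctrl (adjusted p = 0.0011) and 0.61 for Graphite minus Ctrl (adjusted p = 0.1). Nr1d2, a repressor in the core loop, read 10.21, 9.6 and 10.57 after rCNT, against 11.83, 11.49, 11.5 and 11.43 after Graphite and 10.53, 10.62 and 10.56 in Ctrl. For Nr1d2 it was Graphite that left the Ctrl level (0.94, adjusted p = 0.0054), while rCNT minus Ctrl was -0.42 (adjusted p = 0.074), and the materials differed by -1.36 ± 0.13 (adjusted p = 9.6e-07). Tef, another D-box factor, differed by -1.37 ± 0.17 (adjusted p = 1.4e-05), Cry2, a repressor of the core loop, by -0.86 ± 0.13 (adjusted p = 0.00011), Per3, of the period family, by -0.93 ± 0.19 (adjusted p = 0.0011) and Ciart, a repressor of the core loop, by -0.56 ± 0.12 (adjusted p = 0.0014).

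Npas2, Arntl, Bhlhe40 and Nfil3 were the clock genes that were higher after rCNT, and Arntl and Nfil3 are known to peak at the opposite time of day to Dbp. Nfil3, which represses through the D-box, read 10.22, 10.38 and 10.56 after rCNT, against 9.13, 8.72, 9.41 and 9.04 after Graphite and 9.54, 9.58 and 9.37 in Ctrl, a difference of 1.27 ± 0.17 (adjusted p = 2.2e-05). Arntl, the activator of the core loop, read 8.72, 9.54 and 9.14 after rCNT, against 8.57, 8.32, 8.4 and 8.51 after Graphite and 9.36, 9.7 and 9.46 in Ctrl. Here Graphite was below Ctrl (-1.0, adjusted p = 0.018), and the difference of 0.6 ± 0.18 between materials (adjusted p = 0.016) passed the threshold but did not without rCNT 5, rCNT 6 or Graphite 14 (adjusted p = 0.14, 0.076 and 0.068). The hour of day at which lungs were taken is not given in the sources used here, and its part in these differences was not tested. Glucocorticoid-responsive genes, some of which follow the same daily rhythm, were lower in 6 of 14 cases and higher in 3, with the sulfotransferase Sult1a1 at -1.28 ± 0.15 (adjusted p = 7.1e-06), and 3 were lower and 2 higher without rCNT 5.

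**Figure D3:**
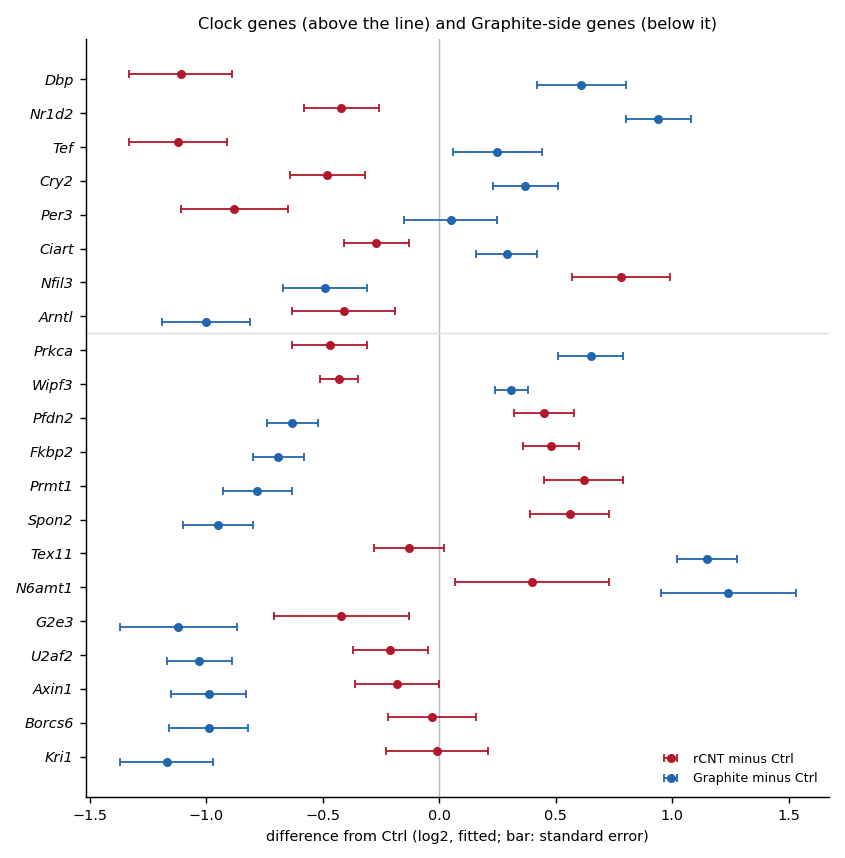
Fitted log2 difference from Ctrl, with its standard error, of 8 clock genes (above the line) and of 13 genes for which Graphite left the Ctrl level (below it), for rCNT (red) and Graphite (blue). Dbp lies at -1.11 after rCNT and 0.61 after Graphite, and Kri1 at -0.01 and -1.17; both differences of a gene use the same 3 Ctrl samples.

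Genes that process foreign and dietary compounds had the lowest median of the 50 lists. In the xenobiotic and retinoid metabolism list 13 of 18 were lower and 1 higher, with a median of -0.93. Pon1, an esterase that breaks down oxidised lipids, read 8.99, 8.94 and 8.23 after rCNT, against 10.57, 11.05, 10.77 and 10.84 after Graphite and 11.58, 11.17 and 11.18 in Ctrl. The highest rCNT sample was well under the lowest Graphite sample, with a difference of -2.01 ± 0.2 (adjusted p = 9.6e-07). Cyp2e1, a cytochrome P450 that oxidises small solvents, was tight within each group: 8.47, 8.53 and 8.34 after rCNT, against 9.77, 9.86, 9.74 and 9.69 after Graphite (-1.28 ± 0.14, adjusted p = 4.3e-06). The club cell enzyme Cyp2f2 differed by -1.15 ± 0.15 (adjusted p = 1.3e-05), and the methyltransferase Inmt by -1.23 ± 0.17 (adjusted p = 3.3e-05). Against Ctrl, 14 of the 18 were lower after rCNT and 1 after Graphite.

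Glutathione transferases were mixed, with 6 of 20 lower and 1 higher. Gsta3 read 12.28, 13.05 and 12.12 after rCNT, against 14.38, 14.24, 13.98 and 13.79 after Graphite (-1.56 ± 0.19, adjusted p = 1.1e-05). Gsta2 differed by -1.52 ± 0.21 (adjusted p = 3.6e-05) and Gstm1 by -1.11 ± 0.15 (adjusted p = 3e-05). The alpha-class genes are related in sequence and their probes may share signal, so those of the list, among them Gsta2 and Gsta3, may not be independent. Gsto1, of the omega class, was the gene that rose: 14.17, 15.25 and 14.89 after rCNT, against 13.44, 13.89, 13.89 and 14.09 after Graphite (1.01 ± 0.15, adjusted p = 8e-05). Targets of the oxidant sensor NRF2 were higher in 5 of 13 cases and lower in none, and in 3 without rCNT 6 or Graphite 16. The largest difference was that of Gclc, the rate-limiting enzyme of glutathione synthesis (1.11 ± 0.17, adjusted p = 8e-05), and the smallest of the 5 that of Srxn1, which repairs oxidised peroxiredoxins (0.35 ± 0.08, adjusted p = 0.0021). Of 12 metallothioneins and zinc transporters 3 were higher: Mt2 by 1.47 ± 0.31 (adjusted p = 0.0014), the zinc importer Slc39a14 by 1.21 ± 0.15 (adjusted p = 7.6e-06) and Slc39a1.

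The lowest gene of all named was Fabp1, a fatty acid binding protein on the alveolar macrophage list, with 8.32, 9.01 and 7.97 after rCNT, against 10.79, 10.44, 10.45 and 10.5 after Graphite and 11.01, 10.7 and 10.46 in Ctrl. Graphite and Ctrl overlapped and every rCNT sample lay below both, with a fitted difference between materials of -2.08 ± 0.22 (adjusted p = 2e-06). Esm1, a proteoglycan of endothelial tip cells, read 10.78, 10.44 and 10.61 after rCNT, against 12.44, 13.17, 12.06 and 12.38 after Graphite (-1.93 ± 0.2, adjusted p = 1.5e-06). Other genes among the 12 lowest were the enzyme Galnt15, which starts O-linked sugar chains (-1.39 ± 0.18), the epididymal defensin-like Spag11b (-1.43 ± 0.2), the decoy receptor for the cytokine IL-22, Il22ra2 (-1.37 ± 0.16) and the ciliary protein Cys1 (-1.36 ± 0.16), with adjusted p between 5.3e-06 and 2.8e-05. Spag11b was under the dim limit in 2 of the rCNT samples. Fat storage genes gave 2 higher and 3 lower of 12. The count was 3 higher and 1 lower without rCNT 4, and 1 higher and 3 lower without rCNT 5, rCNT 6 or Graphite 14. Among the members were 2 related lipid droplet proteins that moved apart: Cidec differed by -1.35 ± 0.14 (adjusted p = 1.4e-06) and Cidea by 0.87 ± 0.1 (adjusted p = 5.4e-06). In the cholesterol and fatty acid synthesis list 4 of 15 were higher (2 without rCNT 5, rCNT 6 or Graphite 14), such as Dhcr7 (0.56 ± 0.12, adjusted p = 0.0017), and the desaturase Scd2 was lower (-0.81 ± 0.11, adjusted p = 3.3e-05).

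Matrix and fibrosis genes were higher in 11 of 18 cases and lower in 1, with a median of 0.64. Without rCNT 6 the count was 7 higher and 2 lower, and with array as a fixed term 6 and 1. Timp1, an inhibitor of matrix proteases, read 13.81, 13.59 and 14.33 after rCNT, against 10.34, 11.56, 10.59 and 11.96 after Graphite and 9.76, 9.68 and 9.96 in Ctrl. Graphite 14 and 16, in Cy3 and on arrays with rCNT, were again above Graphite 13 and 15, in Cy5. The same order held for Mmp12 and Prg2, whose values are given below. The difference between materials was 2.53 ± 0.38 (adjusted p = 6.5e-05). Acta2, the smooth muscle actin of myofibroblasts, was 0.92 ± 0.16 higher (adjusted p = 0.00021). In the metalloproteinase list 6 of 12 were higher and 1 lower. Mmp12, the macrophage elastase, read 7.83, 9.1 and 10.38 after rCNT, against 5.58, 7.01, 5.9 and 6.09 after Graphite (2.74 ± 0.37, adjusted p = 2.5e-05), and Mmp19 was 1.26 ± 0.1 higher (adjusted p = 1.4e-07). Lysosomal genes were higher in 7 of 17 cases and lower in 1, with 4 higher without rCNT 6 and 3 with array as a fixed term: the collagen-degrading cathepsin K (Ctsk) by 1.08 ± 0.24 (adjusted p = 0.0024) and cathepsin Z (Ctsz) by 0.87 ± 0.14 (adjusted p = 0.0001). For ER stress genes 5 of 13 were higher and 2 lower (3 and 2 without rCNT 6, where the median was -0.03), with the chaperone cofactor Sdf2l1 1.26 ± 0.2 higher (adjusted p = 9.3e-05) and the stress-induced factor Atf3 1.16 ± 0.17 higher (adjusted p = 6.9e-05).

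Of receptors that recognise particles 4 of 17 were higher and 3 lower, with a median of 0.08, and 2 were higher and 2 lower without rCNT 6. Scara3 was 0.7 ± 0.13 higher (adjusted p = 0.00039). Fpr1, the receptor for bacterial formyl peptides on phagocytes, read 9.77, 9.54 and 8.96 after rCNT, against 10.97, 10.89, 10.76 and 10.71 after Graphite and 10.33, 10.17 and 10.73 in Ctrl (-1.36 ± 0.16, adjusted p = 6.5e-06). Complement genes were higher in 8 of 14 cases and lower in none, with a median of 0.87. The median was 0.23 within slide 1 and 1.12 within slide 2. The list's mean level above Ctrl was 0.38 in rCNT 4 and 1.03 and 1.02 in rCNT 5 and 6, against -0.18 to 0.29 in Graphite samples. C1qa, a chain of the first complement component made by macrophages, read 11.67, 11.97 and 11.61 after rCNT, against 9.58, 10.2, 10.19 and 9.97 after Graphite and 10.2, 10.04 and 10.1 in Ctrl (1.65 ± 0.2, adjusted p = 9.7e-06). Properdin (Cfp), which stabilises the alternative pathway, was 1.21 ± 0.14 higher (adjusted p = 5.4e-06). MHC class II genes were higher in 5 of 10 cases and lower in 1 (3 higher without rCNT 5, rCNT 6, Graphite 14 or Graphite 16), with H2-DMb1 0.94 ± 0.13 higher (adjusted p = 3.4e-05) and the invariant chain Cd74 0.67 ± 0.15 higher (adjusted p = 0.0026).

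Markers of immune cells were read next, in whole-lung RNA, where fewer cells of a type and less RNA per cell cannot be told apart. Recruited monocyte and macrophage markers were higher in 8 of 12 cases and lower in 1, with a median of 0.84, and the mean level of the list above Ctrl was 1.26, 1.27 and 1.46 in rCNT samples, against 0.46, 0.2, 0.62 and 0.19 in Graphite samples. The count of higher genes was 4 without rCNT 6 (median 0.61), 4 without Graphite 14 (median 0.57), 5 without Graphite 16 and 3 with array as a fixed term. Cd14, the endotoxin co-receptor of monocytes, read 12.6, 12.58 and 12.54 after rCNT, against 10.89, 11.23, 10.96 and 10.98 after Graphite (1.47 ± 0.14, adjusted p = 5.6e-07). Alveolar macrophage markers gave 2 higher and 1 lower of 9, with the integrin Itgax 0.85 ± 0.15 higher (adjusted p = 0.00037). Eosinophil and basophil markers were higher in 4 of 7 cases: Ear6, Alox15, Prg2 and Ccr3, the last also counted with the eotaxins. Siglecf, Cd200r3 and Il5ra were not called. Epx, Prg3 and Mcpt8 were on the array but did not pass the filter on dim signals. Prg2, the eosinophil major basic protein, read 8.08, 8.68 and 9.31 after rCNT, against 5.44, 6.82, 5.54 and 6.15 after Graphite and 5.42 to 5.46 in Ctrl (2.47 ± 0.27, adjusted p = 3.3e-06). Dendritic cell markers were higher in 5 of 11 cases: the transcription factor Irf4 by 1.28 ± 0.16 (adjusted p = 1.3e-05) and the chemokine Ccl22 by 1.2 ± 0.12 (adjusted p = 1.2e-06). The mean level of that list above Ctrl was 0.01 in rCNT 4 and 0.87 and 0.8 in rCNT 5 and 6, against -0.21 to 0.07 in Graphite samples, and without rCNT 4 the count was 8 of 11.

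Of neutrophil markers 2 of 12 were higher and 1 lower, with a median of -0.09. The mean level of the list above Ctrl was 0.7, 0.74 and 0.89 in the rCNT samples, against 0.1, -0.04, 1.77 and 0.3 in Graphite 13, 14, 15 and 16. Graphite 15 thus stood above all rCNT samples, and without it the list's median was 0.47 and 5 genes were higher. Retnlg, a resistin-like protein of neutrophils, read 12.29, 12.91 and 12.68 after rCNT, against 10.88, 10.13, 12.37 and 10.62 after Graphite (1.64 ± 0.31, adjusted p = 0.00056). Natural killer and cytotoxic cell markers were lower in 4 of 9 cases and higher in none, with a median of -0.38. Klrb1c, the antigen NK1.1, read 6.95, 7.3 and 7.5 after rCNT, against 7.94, 7.33, 8.53 and 7.59 after Graphite and 6.72, 7.03 and 7.13 in Ctrl. The groups overlapped, Graphite exceeded Ctrl by 0.84 (adjusted p = 0.028), and the materials differed by -0.62 ± 0.17 (adjusted p = 0.0094). Ncr1, an activating receptor of these cells, differed by -0.58 ± 0.15 (adjusted p = 0.0061). The list's mean level above Ctrl was 1.07 in Graphite 15. The number of lower genes was 2 of 9 without Graphite 16 and 1 of 9 without rCNT 4, which left Klrb1c and Ncr1 short of the threshold (adjusted p = 0.13 and 0.1), and the median of the mean differences within the 2 shared arrays was 0.11. The neutrophil count above and the T cell and B cell counts that follow were near the share of all genes (12.8% higher). Of T cell markers 1 of 9 was higher, Foxp3 of regulatory T cells (0.63 ± 0.18, adjusted p = 0.012). Foxp3 lost the call without rCNT 4, rCNT 6 or Graphite 14 (adjusted p = 0.055, 0.081 and 0.058). Of B and plasma cell markers 1 of 7 was higher, Mzb1 (0.4 ± 0.11, adjusted p = 0.0098; 0.057 without Graphite 16), and of mast cell markers 1 of 5 was lower (2 without rCNT 6 or Graphite 14), the stem cell factor receptor Kit (-0.82 ± 0.12, adjusted p = 7e-05), which is not limited to mast cells.

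**Figure D4:**
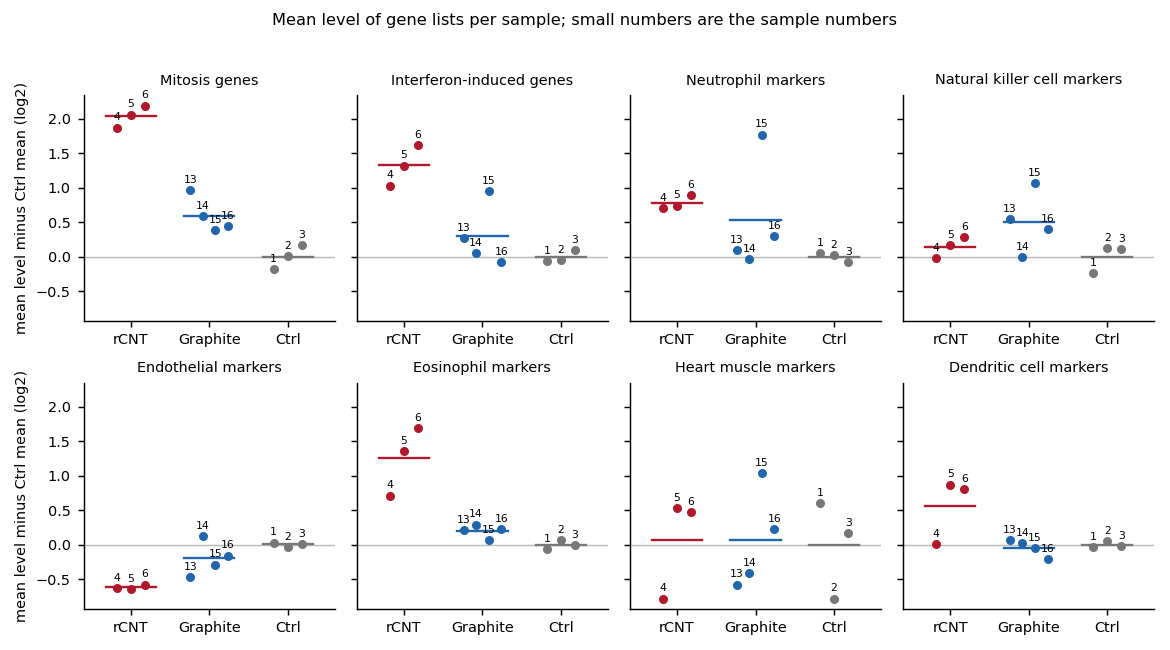
Mean log2 level of 8 gene lists in each sample, minus the mean of the 3 Ctrl samples, for rCNT (red), Graphite (blue) and Ctrl (grey); small numbers are sample numbers and lines are group means. The mitosis list separates the materials, with 1.87 to 2.19 in rCNT and 0.39 to 0.96 in Graphite samples, whereas Graphite 15 alone stands at 1.77 in the neutrophil list and heart muscle genes vary within every group.

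Markers of the structural cells of the lung moved in both directions. Endothelial markers were lower in 8 of 13 cases and higher in none, with a median of -0.52, and the list's mean level relative to Ctrl was -0.63, -0.64 and -0.58 in rCNT samples, against -0.47, 0.12, -0.29 and -0.16 in Graphite samples. Ramp2, a partner of the adrenomedullin receptor, differed by -0.81 ± 0.12 (adjusted p = 5.9e-05) and the guidance receptor Robo4 by -0.63 ± 0.1 (adjusted p = 0.00016). Within slide 2 the endothelial count was 1 lower and 2 higher, with a median of -0.21. Alveolar type 1 markers were lower in 4 of 10 cases, with a median of -0.49. The count was 7 without Graphite 13, and without Graphite 14 it was 3 with a median of -0.22. Lowest were Clic5 (-0.93 ± 0.13, adjusted p = 5.3e-05) and the membrane protein Emp2 (-0.78 ± 0.15, adjusted p = 0.00053), while the best known marker, Ager, differed by -0.33 ± 0.19 (adjusted p = 0.22). Alveolar type 2 markers gave 2 higher and 2 lower of 10. The collectins were the higher ones: Sftpd read 16.86, 17.45 and 16.94 after rCNT, against 16.23, 15.45, 16.41 and 16.11 after Graphite (1.12 ± 0.2, adjusted p = 0.00041), and Sftpa1 was 0.4 ± 0.08 higher (adjusted p = 0.0011). Sftpc differed by -0.1 ± 0.18 (adjusted p = 0.74). It reached the highest value of the scale in samples of both materials, so the size of its difference is poorly measured.

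Among club and secretory cell markers 2 of 9 were higher and 3 lower, and 1 was lower without rCNT 5, rCNT 6 or Graphite 14. Scgb1a1, which defines club cells, differed by -0.26 ± 0.09 (adjusted p = 0.045), a call lost without rCNT 4, rCNT 5, rCNT 6, Graphite 14 or Graphite 16 (adjusted p = 0.057 to 0.15). Its signals were near the highest value of the scale, so the size of its difference may be compressed. The 2 higher genes were antimicrobial proteins with wide spread. Reg3g read 12.24, 14.46 and 14.0 after rCNT, against 6.87, 10.33, 12.0 and 11.97 after Graphite and 10.67, 9.34 and 9.84 in Ctrl (3.43 ± 0.86, adjusted p = 0.0055), and Ltf, lactoferrin, which neutrophils also carry, was 1.81 ± 0.47 higher (adjusted p = 0.0073). Without rCNT 6 the Reg3g difference was 2.73, with an adjusted p of 0.054. Ciliated cell markers were higher in 6 of 13 cases and lower in 1, and in 3 of 13 cases without rCNT 5, rCNT 6 or Graphite 14. Foxj1, the master regulator of cilia, read 11.38, 11.31 and 11.28 after rCNT, against 9.93, 9.4, 9.55 and 9.64 after Graphite and 10.56, 10.18 and 10.11 in Ctrl. Its rCNT samples lay above and its Graphite samples below every Ctrl sample, with a difference of 1.72 ± 0.16 between materials (adjusted p = 5.6e-07). Ccno, needed to multiply centrioles, was 1.1 ± 0.17 higher (adjusted p = 9.4e-05).

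Fibroblast markers were higher in 1 of 11 cases and lower in 3, with the growth factor receptor Pdgfra at -0.77 ± 0.15 (adjusted p = 0.00093). The higher one was the matrix protein Dpt, with 10.21, 10.8 and 10.83 after rCNT, against 9.66, 10.46, 9.98 and 9.77 after Graphite and 11.14, 10.93 and 10.77 in Ctrl. Graphite minus Ctrl was -0.98 (adjusted p = 0.0054), and rCNT was 0.64 ± 0.14 above Graphite (adjusted p = 0.0015). Smooth muscle genes were higher in 4 of 10 cases and lower in 1, among them the enteric actin Actg2 (1.43 ± 0.17, adjusted p = 5.5e-06) and Tagln (0.66 ± 0.11, adjusted p = 0.00017). Mesothelial markers were lower in 3 of 9 cases and higher in 1, led by Muc16 (-0.85 ± 0.15, adjusted p = 0.00036) and Upk1b (-0.82 ± 0.15, adjusted p = 0.00048). The heart muscle list had 1 higher and 1 lower of 12, near the shares of all genes (12.8% and 13.3%), with 2 higher without Graphite 15. Its mean level relative to Ctrl varied within both materials, from -0.78 in rCNT 4 to 0.53 in rCNT 5 and from -0.58 in Graphite 13 to 1.04 in Graphite 15. Myh7, the slow cardiac myosin, differed by -1.32 ± 0.16 (adjusted p = 1e-05) and the cardiac actin Actc1 by 0.62 ± 0.18 (adjusted p = 0.014; 0.12 without rCNT 5 and 0.088 without rCNT 6). Of skeletal muscle genes 2 of 6 were higher, Acta1 (1.09 ± 0.14, adjusted p = 2e-05) and Tnni2 (0.56 ± 0.1, adjusted p = 0.00045). Red cell genes gave 1 higher, Epb42 (0.4 ± 0.13, adjusted p = 0.031; 0.11 without rCNT 5, 0.19 without rCNT 6 and 0.096 without Graphite 14), which was under the dim limit in all Graphite samples, and 2 lower of 6, among them the globin Hbb-bs (-1.02 ± 0.27, adjusted p = 0.007); 1 was lower without rCNT 5, rCNT 6, Graphite 14 or Graphite 16. How far tissue left on the lung contributed to these muscle and blood values was not tested.

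Some genes that differed between the materials were also past the threshold in Graphite against Ctrl. Of the 187 genes past the threshold in Graphite against Ctrl, 96 were also called between rCNT and Graphite. Against Ctrl both materials were past the threshold for 99 genes, with opposite signs for 7 and the same sign for 92, 30 of which were also called between the materials. Spon2, a secreted matrix protein of innate defence, read 11.1, 11.44 and 11.03 after rCNT, against 9.45, 9.67, 9.33 and 9.94 after Graphite and 10.6, 10.66 and 10.44 in Ctrl. Ctrl lay between the materials: rCNT was 0.56 above it (adjusted p = 0.024) and Graphite below it (-0.95, adjusted p = 0.0061), and the materials differed by 1.52 ± 0.14 (adjusted p = 5.6e-07). The arginine methyltransferase Prmt1 (1.4 ± 0.14, adjusted p = 1e-06), the ER prolyl isomerase Fkbp2 (1.17 ± 0.1, adjusted p = 2.2e-07) and the prefoldin subunit Pfdn2 (1.08 ± 0.1, adjusted p = 6.5e-07) had the same arrangement. With signs turned, Prkca, a protein kinase C, read 10.73, 10.39 and 10.86 after rCNT, against 12.38, 11.85, 11.55 and 11.56 after Graphite and 11.31, 11.2 and 11.05 in Ctrl (-1.12 ± 0.13, adjusted p = 4.3e-06), and Wipf3, of a family that binds actin regulators, differed by -0.74 ± 0.07 (adjusted p = 5.6e-07).

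Where rCNT stayed near Ctrl, the largest Graphite changes included Tex11, Kri1, U2af2, Axin1 and Borcs6. Tex11, known from meiosis, read 7.3, 7.31 and 7.32 after rCNT, against 8.92, 8.79, 8.52 and 8.38 after Graphite and 7.53, 7.51 and 7.59 in Ctrl. Graphite exceeded Ctrl by 1.15 (adjusted p = 0.00069), and rCNT differed from Graphite by -1.28 ± 0.13 (adjusted p = 9.3e-07). Kri1, a factor of ribosome assembly, read 11.27, 12.05 and 11.57 after rCNT, against 10.68, 10.21, 10.78 and 10.49 after Graphite and 11.75, 11.8 and 11.96 in Ctrl. All Graphite samples were lower than every rCNT and Ctrl sample, with rCNT 1.16 ± 0.18 above Graphite (adjusted p = 0.0001). The splicing factor U2af2 (0.82 ± 0.13, adjusted p = 0.00013), the Wnt pathway scaffold Axin1 (0.82 ± 0.14, adjusted p = 0.00032) and the lysosome-positioning protein Borcs6 (0.97 ± 0.15, adjusted p = 0.00012) were likewise lower in Graphite than in Ctrl lungs (U2af2 -1.03, Axin1 -0.99 and Borcs6 -0.99). The methyltransferase N6amt1 (-0.84 ± 0.27, adjusted p = 0.024) and the ubiquitin ligase G2e3 (0.71 ± 0.24, adjusted p = 0.032) were less steady: N6amt1 lost the call without rCNT 4 or Graphite 13 (adjusted p = 0.14 and 0.053), and G2e3 lost it without rCNT 4, rCNT 5, Graphite 14 or Graphite 16 (adjusted p = 0.058 to 0.32).

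The arrays that held both materials gave the difference with no other array between. Of the 2112 higher genes, 2035 had the same sign within both arrays, and of the 2199 lower genes 2116 did. The median difference of the higher genes was 0.58 between rCNT 4 and Graphite 16 and 0.64 between rCNT 6 and Graphite 14, against 0.58 in the fit over all samples. For the lower genes these medians were -0.63 and -0.46, against -0.49 in the fit. Of the 136 named genes past the threshold, 135 had the sign of the fit within both arrays, the exception being Klrb1c. The samples of these arrays also entered the fit that made the calls. Most matching signs follow from that, so they are no separate support. Ccl24 came to 4.83 and 5.5 within these arrays, Cxcl5 to 4.06 and 5.68, Esm1 to -1.59 and -2.56 and Fabp1 to -2.18 and -2.46. Both rCNT samples were in Cy5 and both Graphite samples in Cy3, so these differences are not free of the dye.

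**Figure D5:**
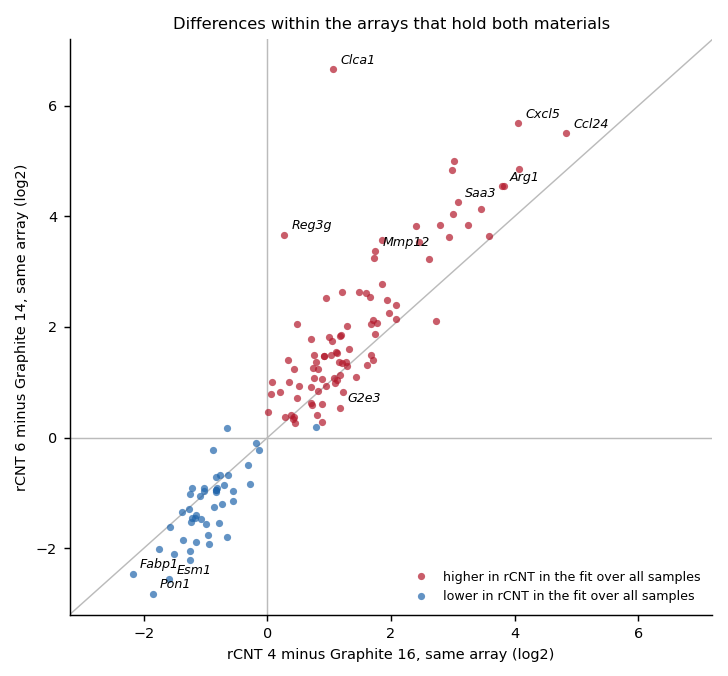
Log2 difference, rCNT minus Graphite, of 138 named genes within the array of rCNT 4 and Graphite 16 (horizontal axis) and within the array of rCNT 6 and Graphite 14 (vertical axis); red genes are higher and blue genes lower in rCNT in the fit over all samples, and the diagonal marks equal differences. Clca1 and Reg3g lie far above the diagonal, with 6.66 against 1.06 for Clca1.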

How the data were processed

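The authors deposited a table of log2 signals for 24 lung RNA pools, 1 column for each dye of 12 Agilent 2-colour arrays. Agilent Feature Extraction and limma are named in the submitters' processing notes; the background correction and normalization settings are not given in the sources used here. Array, slide and dye were taken from the labels. Of 62976 spots, 31465 had 1 gene name and 31511 none. The brightest spot of a gene was kept, and genes above the 40th percentile of a sample in at least 3 samples were tested (16530 of 20738). limma 3.58.1 in R 4.3.3 (statmod 1.5.0) fitted group and dye to all 24 samples, with array as a random block (correlation 0.399, 16 residual degrees of freedom), 2-sided, with Benjamini-Hochberg adjustment; the script was tested on simulated data. The median standard error of a difference was 0.131, and the number of arrays limits the precision. The comparison, the 50 gene lists and the rules below were chosen with earlier results of these data known. Named were the 12 highest and 12 lowest called genes, the 2 smallest p-values of each list, 6 genes moved in opposite directions against Ctrl, 8 moved mainly by Graphite, the 6 smallest p-values, and list members or defining markers needed to account for a count. Alternatives covered dye, array, slide, samples, filter, scaling, spots, prior, weights and thresholds.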

Additional observations from a re-analysis of the deposited data

Results flagged for a closer look

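Among the 4 Graphite samples, a single sample stood apart from the other 3 in 5 of the 138 genes described, where the gap to the nearest sample divided by the range was above Dixon's critical value. Chance alone sets a sample apart in about 1 in 20 such groups. Graphite 13 read 7.06 for Cxcl5 (gap over range 0.947), 6.99 for Foxp3 (0.904) and 13.22 for Ager (0.868), the last below all other Graphite samples. Graphite 15 read 7.83 for Il1r2 (0.887), and Graphite 14 read 10.3 for Upk1b (0.847). Graphite 13 also held the fewest distinct values of all samples (4868); its part in these readings was not tested.

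Unnamed spots form no part of the comparison above. Of 16650 of them tested with the same fit, 1492 differed between rCNT and Graphite lungs, 572 higher and 920 lower.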

How the results depend on the processing

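No paired analysis was possible because the sample numbers in the titles are not shared between groups; the pairing of samples on 2 arrays was used instead, with array as a block or a fixed term and as differences within these arrays. Of the 136 named genes past the threshold, 128 stayed past it with array as a fixed term, 104 with only the 7 rCNT and Graphite samples, 112 within slide 1 and 113 within slide 2. Genes called numbered 2793 with array as a fixed term (1369 higher, 1424 lower), 916 with only the 7 samples (596, 320), 2548 with rCNT, Graphite and Ctrl samples (1357, 1191), 2659 at an adjusted p under 0.01 (1355, 1304) and 1748 at 1.5-fold or more (1039, 709). With the 7 samples 65.1% of calls were higher, against 49.0% in the fit over all samples. Leaving out 1 sample at a time gave 3339 to 4744 genes called, 1619 to 2242 higher and 1478 to 2502 lower, and 1364 were lower when the array shared by rCNT 4 and Graphite 16 was dropped. The difference changed sign for Sftpc (0.01 with array as a fixed term, 0.23 within slide 1, and -0.35 to 0.1 when 1 sample was left out, the highest without rCNT 5), Ager (0.31 within slide 2), Actc1 (-0.14 within slide 1), Hbb-bs (0.2 within slide 2) and G2e3 (-0.41 within slide 2); the cause was not tested. Within a slide, lone samples were assumed to vary like the other groups. Signals under the dim limit leave the size of a difference poorly measured: Il13, Il5, Ccl22 and Epb42 were under it in all 4 Graphite samples, Btbd17 in 3, Il6 and Prg2 in 2, and Mmp12 and Retnlb in 1, and Spag11b in 2 rCNT samples.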
